A study of Mus musculus with 12 samples.

Results

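The genes of the AMPA receptor (Gria1, Gria2, Gria3 and Gria4) and of the kainate receptor (Grik1, Grik2, Grik3, Grik4 and Grik5) were followed in the thalamus of newborn mice. These 9 genes were chosen by name, by matching the Ensembl identifiers of the count files to gene symbols, and make up 9 of the 55359 genes counted. RNA was sequenced in bulk from the ventroposterior medial nucleus, the thalamic relay for touch on the face, at postnatal day 0. The embWPC ALBSF group comes from pups given embWPC, a treatment named in the labels but not spelled out there, and from the territory that receives upper lip input. The Ctrl PMBSF group comes from control pups and from the territory that receives whisker pad input, and the Ctrl ALBSF group from control pups and the lip territory. Each group had 4 libraries, and each library was made from tissue of 5 pooled brains. Strain and genotype are not given in the sources used here. No embWPC library of the PMBSF territory was analysed here.

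AMPA receptors carry most of the fast excitatory current in the brain and are assemblies of 4 subunits around an ion channel. An edited codon in the pore of the Gria2 subunit turns a glutamine into an arginine and keeps calcium out, so channels that lack Gria2 let calcium pass. Kainate receptors are built in the same way from their own 5 subunits and sit both on the receiving side of synapses and on the nerve endings that release transmitter. Grik1, Grik2 and Grik3 can form channels by themselves, whereas Grik4 and Grik5 bind kainate with high affinity but reach the cell surface as working channels only together with one of these. Kainate receptors are known at the young synapses that thalamic axons make in the sensory cortex of rodents, where they give way to AMPA receptors as the synapses mature.

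The pore loop is shown for all 9 subunits because it holds the site that gives each channel its calcium permeability and because it shows how close the genes are to each other. Each line is the coding strand of 51 bases of the GENCODE M39 canonical transcript on GRCm39, 5′ to 3′, with the codon of the edited site in capitals.
Gria1: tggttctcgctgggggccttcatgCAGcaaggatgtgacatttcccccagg
Gria2: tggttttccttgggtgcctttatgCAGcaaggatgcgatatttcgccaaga
Gria3: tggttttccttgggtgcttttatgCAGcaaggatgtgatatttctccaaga
Gria4: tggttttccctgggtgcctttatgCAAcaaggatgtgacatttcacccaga
Grik1: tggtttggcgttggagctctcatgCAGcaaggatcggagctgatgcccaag
Grik2: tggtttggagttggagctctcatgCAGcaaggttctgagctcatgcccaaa
Grik3: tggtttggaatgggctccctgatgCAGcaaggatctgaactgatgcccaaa
Grik4: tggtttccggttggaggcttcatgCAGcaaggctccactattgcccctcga
Grik5: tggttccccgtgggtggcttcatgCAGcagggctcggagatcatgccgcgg

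In the genome the codon reads as glutamine in all 9 genes. Editing happens in the RNA and is known for Gria2, Grik1 and Grik2, and gene counts do not measure it. The codon of Gria2 lies in exon 11 of 16 at chr3:80614218-80614220, and that of Grik4 in exon 16 of 21 at chr9:42458919-42458921. Within the pore loop, 41 to 48 of the 51 bases were identical between AMPA subunits, 28 to 46 between kainate subunits and 32 to 36 between the families. The longest stretch that any 2 of the 9 canonical transcripts share was 51 bases, which is shorter than the reads of 150 bases.

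Library totals ran from 28457046 to 34512840 counts, and all 9 genes passed the filter on low counts, with 65 to 17211 counts per library. Values are given as CPM, which are read counts scaled so that libraries of unequal depth and composition can be compared, as mean ± SD over the 4 libraries of a group. Markers of thalamic relay neurons summed to 2187 to 2528 CPM in embWPC ALBSF, 1967 to 2244 CPM in Ctrl PMBSF and 2119 to 2565 CPM in Ctrl ALBSF. Between Ctrl PMBSF and Ctrl ALBSF, 1 of these 6 markers was called higher and 1 lower, beside 1.62% of all genes tested. Rora was higher, at 651 ± 41.1 CPM in Ctrl PMBSF and 498 ± 9.61 CPM in Ctrl ALBSF. Tcf7l2 was lower, at 681 ± 108 CPM in Ctrl PMBSF and 1154 ± 198 CPM in Ctrl ALBSF. Those of telencephalic neurons stayed between 2.75 and 13.9 CPM over the 12 libraries, with Emx1 at 0 in 4 of them. Meningeal markers stood apart in 1 library, with a sum of 106 CPM in Ctrl PMBSF 2 against 13.3 to 41.5 CPM in the other 11. In bulk tissue, fewer cells of a type and less RNA per cell cannot be told apart.

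Averaged over the 12 libraries, Gria2 was the most abundant of the 9 genes per length and Grik4 the least. Divided by the length of all annotated exons, the mean over the 12 libraries was 13.7 CPM per kb for Gria2 and 6.36 CPM per kb for Gria4. The libraries of these genes ran from 11.2 to 16.4 CPM per kb for Gria2 and from 5.32 to 7.21 CPM per kb for Gria4, so their ranges did not meet. Grik1 averaged 3.13, Grik5 3.12, Grik3 2.51, Grik2 2.21 and Gria1 2.10 CPM per kb. The ranges of these 5 neighbours overlapped, and their order changed when the longest transcript was used as the length. Gria3 averaged 0.640 CPM per kb, with libraries from 0.408 to 0.855, and Grik4 averaged 0.410, with libraries from 0.227 to 0.698. The order of Gria3 and Grik4 is that of the pooled mean: in the Ctrl ALBSF group their means were 0.625 and 0.602 CPM per kb, and Grik4 was above Gria3 in 3 of the 4 libraries on the union length, though in none of the 4 with the longest or the canonical transcript. On the pooled mean the places of Gria2, Gria4, Gria3 and Grik4 were the same with the longest and with the canonical transcript. The levels themselves depend on the length, with 17.6 CPM per kb for Gria4 when the longest transcript was used.

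**Figure D1:**
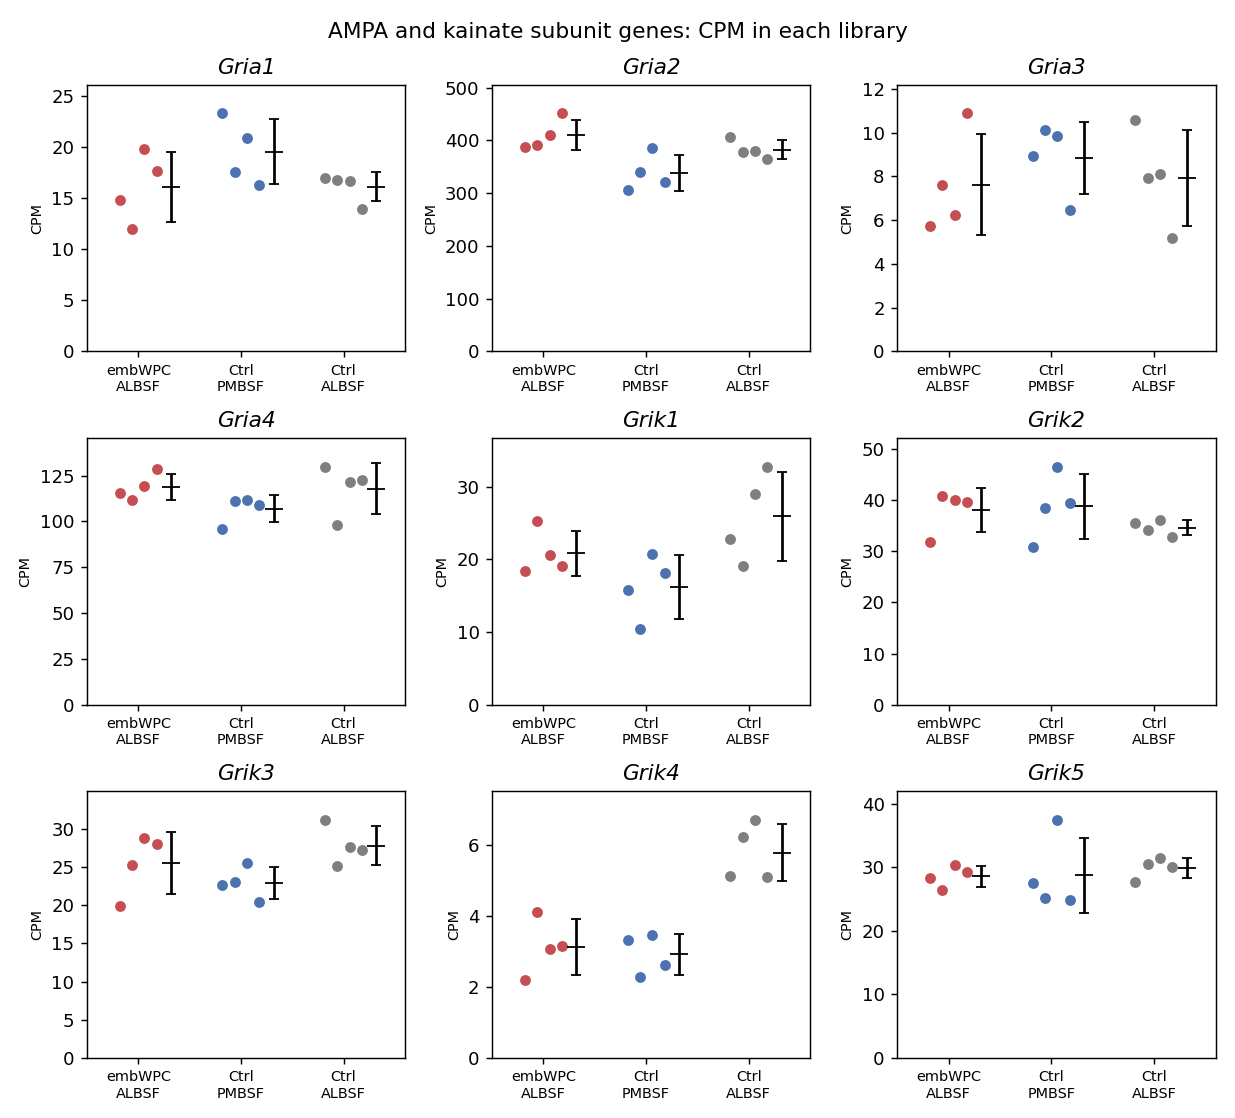
CPM of each subunit gene (vertical axis, from 0) in the 4 libraries of embWPC ALBSF, Ctrl PMBSF and Ctrl ALBSF, with the mean and SD of each group as a black bar. The Grik4 points of embWPC ALBSF and of Ctrl PMBSF reach at most 4.10 CPM, and the lowest of Ctrl ALBSF is at 5.09 CPM.

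The comparison of Ctrl PMBSF with Ctrl ALBSF asks whether the receptor genes differ between the whisker and lip territories of the newborn relay nucleus. Grik4, a high-affinity kainate subunit, was lower in the whisker territory, and the other 8 genes did not pass the unpaired test. With control libraries of the same number paired, edgeR also called Grik1 lower, which made 2 of 9 beside 5.04% of all genes. Of the 9 genes, 1 was called in edgeR's unpaired quasi-likelihood test at a Benjamini-Hochberg adjusted p under 0.05, beside 1.62% of the 17501 genes tested. DESeq2 called 2 of 9, beside 3.01% of its genes, limma voom 1 of 9, beside 2.53%, and edgeR without the count filter 2 of 9, beside 1.15%. The second gene in both cases was Grik1. The groups did not overlap in 1 of 9 genes, beside 8.28% of all genes. The 4 AMPA genes had a median log2 fold change of 0.01 and the 5 kainate genes one of -0.28, beside 0.00 over all genes. Each library is a pool, and nothing in the labels says that the pools of a territory share no litter, so p measures the spread between these pools.

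Grik4 (ENSMUSG00000032017, chr9:42429431-42856154, minus strand) was at 3.32, 2.27, 3.47 and 2.61 CPM in the 4 Ctrl PMBSF libraries, against 5.13, 6.22, 6.71 and 5.09 CPM in the 4 Ctrl ALBSF libraries. Every library of the whisker territory lay below every library of the lip territory. The means were 2.92 ± 0.573 CPM in Ctrl PMBSF and 5.79 ± 0.809 CPM in Ctrl ALBSF. The log2 fold change was -0.98 ± 0.20 (SE, n = 4 per group), a ratio of 0.505, with an adjusted p of 0.0189. The call was kept in 15 of 21 other settings, and was lost when Ctrl ALBSF 2 (adjusted p = 0.0666), Ctrl ALBSF 3 (0.0822), Ctrl PMBSF 2 (0.0690) or Ctrl PMBSF 4 (0.0571) was left out.

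Markers of other cell types moved with the same contrast. Meningeal markers were higher in Ctrl PMBSF for 11 of 12 genes, none of them called, and summed to 18.5 to 106 CPM in Ctrl PMBSF and 21.6 to 22.9 CPM in Ctrl ALBSF. Oligodendrocyte lineage markers were lower for 6 of 6 genes tested, with 1 call, and summed to 320 to 341 CPM in Ctrl PMBSF and 366 to 482 CPM in Ctrl ALBSF. With the library number as a block 4 meningeal markers were called higher and 5 oligodendrocyte markers lower. Microglial markers were lower for 7 of 7 genes, none called, with sums of 36.7 to 82.7 CPM in Ctrl PMBSF and 43.9 to 70.9 CPM in Ctrl ALBSF. Astrocyte and radial glia markers were lower for 8 of 10 genes and higher for 2, none called. They summed to 6307 to 7997 CPM in Ctrl PMBSF and 7828 to 11562 CPM in Ctrl ALBSF, and 1 was called lower with the block. With the meningeal level as a covariate the log2 fold change of Grik4 was -0.82 with an adjusted p of 0.189, and with the oligodendrocyte level it was -0.95 with an adjusted p of 0.0982. In these fits none of the 9 genes was called, beside 0.617% of all genes with the meningeal and 0.789% with the oligodendrocyte covariate. The part of these cells in the result was not tested further.

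Grik1, a low-affinity kainate subunit whose RNA is edited, stood at 15.8, 10.4, 20.8 and 18.1 CPM in Ctrl PMBSF, against 22.8, 19.1, 29.1 and 32.8 CPM in Ctrl ALBSF. The groups overlapped, since the third whisker library was above the second lip library. Its log2 fold change was -0.67 ± 0.20, with an adjusted p of 0.135. The same-numbered libraries of the control territories deviated together from their group means, so the 4 numbers were also used as pairs. With the library number as a block, the log2 fold change of Grik1 was -0.68 ± 0.09 with an adjusted p of 0.000796, which is a call, and that of Grik4 was -0.99 ± 0.16 with an adjusted p of 0.00397. The block raised the count of members called to 2 of 9, beside 5.04% of all genes in that fit.

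The pairs give the size of each difference directly. The ratio of the Ctrl PMBSF library to the Ctrl ALBSF library of the same number ran from 0.365 to 0.648 for Grik4 and from 0.545 to 0.715 for Grik1, below 1 in 4 of 4 pairs for both. Grik3, another subunit that can form channels by itself, also had 4 of 4 ratios below 1, from 0.725 to 0.924. Its libraries were at 22.6, 23.0, 25.6 and 20.4 CPM in Ctrl PMBSF and 31.2, 25.1, 27.7 and 27.2 CPM in Ctrl ALBSF. The log2 fold change of Grik3 was -0.28 ± 0.11 with an adjusted p of 0.327, or 0.0656 with the block, and was not called.

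**Figure D2:**
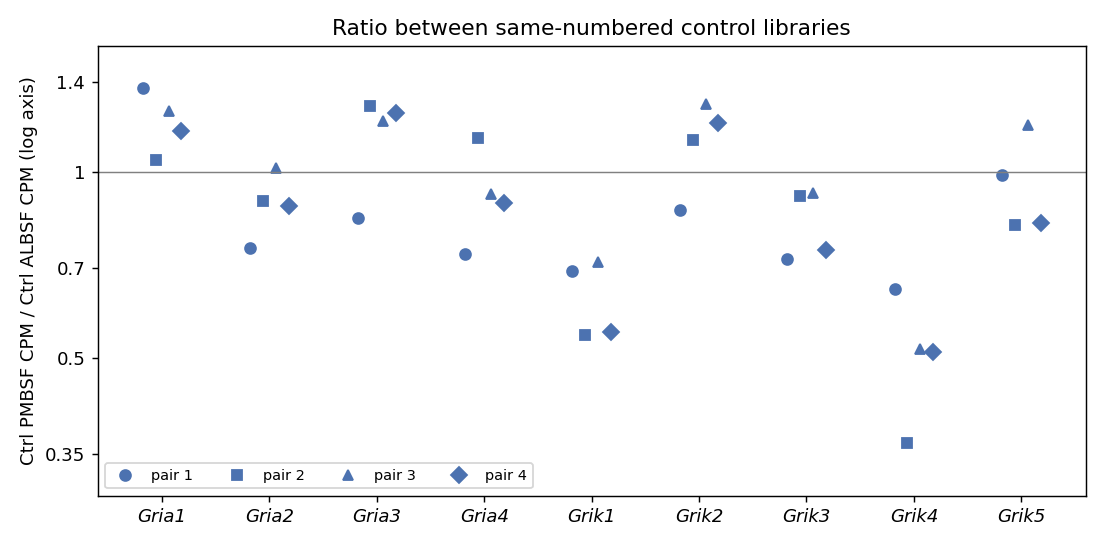
Ratio of CPM in a Ctrl PMBSF library to CPM in the Ctrl ALBSF library of the same number (vertical axis, log scale) for the 9 subunit genes, with 1 symbol for each of the 4 pairs. All 4 symbols lie below 1 for Grik1, Grik3 and Grik4 and above 1 for Gria1.

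The remaining kainate genes differed by less. Grik2, the most studied of the channel-forming subunits, averaged 38.8 ± 6.41 CPM in Ctrl PMBSF and 34.7 ± 1.53 CPM in Ctrl ALBSF, a log2 fold change of 0.16 ± 0.11 with an adjusted p of 0.629. Grik5, the other high-affinity subunit, averaged 28.7 ± 5.94 CPM in Ctrl PMBSF and 29.9 ± 1.58 CPM in Ctrl ALBSF, a log2 fold change of -0.06 ± 0.11 with an adjusted p of 0.905. Grik5 shares 145 bases of exon with Zfp574 on the opposite strand, and whether counting used the strand is not given in the sources used here, so reads there cannot be assigned with certainty.

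No AMPA gene was called between the territories, with or without the block. Gria1 (ENSMUSG00000020524, chr11:56902153-57221080), a subunit that forms calcium-permeable channels when alone, was at 23.3, 17.6, 20.9 and 16.3 CPM in Ctrl PMBSF and 17.0, 16.8, 16.7 and 14.0 CPM in Ctrl ALBSF. Its log2 fold change was 0.28 ± 0.15 with an adjusted p of 0.502, or 0.0863 with the block, and its pair ratios ran from 1.05 to 1.37. Gria2 (ENSMUSG00000033981, chr3:80588757-80710538) was at 307, 340, 386 and 321 CPM in Ctrl PMBSF and 407, 378, 379 and 364 CPM in Ctrl ALBSF. The whisker libraries were lower in 3 of 4 pairs, and the log2 fold change was -0.18 ± 0.09 with an adjusted p of 0.445. Gria3, the AMPA gene on the X chromosome, averaged 8.84 ± 1.66 CPM in Ctrl PMBSF and 7.95 ± 2.19 CPM in Ctrl ALBSF, with a log2 fold change of 0.15 ± 0.23. Gria4, a subunit known for fast channels and for early expression, averaged 107 ± 7.50 CPM in Ctrl PMBSF and 118 ± 13.8 CPM in Ctrl ALBSF, with a log2 fold change of -0.14 ± 0.09. Neither passed the test, at adjusted p values of 0.861 for Gria3 and 0.597 for Gria4.

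**Figure D3:**
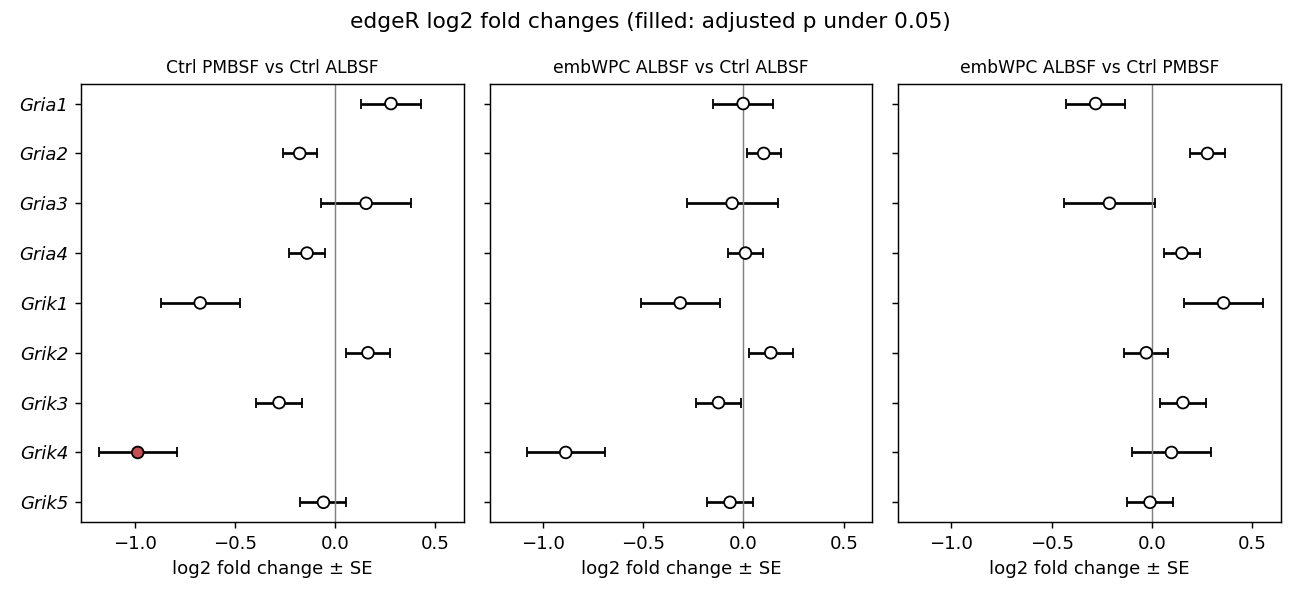
Log2 fold changes with their SE (horizontal axis) of the 9 subunit genes in the 3 comparisons, with filled points for an adjusted p under 0.05. The filled point is Grik4 at -0.98 in Ctrl PMBSF vs Ctrl ALBSF, and its value in embWPC ALBSF vs Ctrl ALBSF, -0.89, is open.

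The effect of the treatment was read within the lip territory, by setting embWPC ALBSF against Ctrl ALBSF. None of the 9 genes was called by edgeR, beside 0.0629% of all genes. At an unadjusted p under 0.05 there was 1 of 9, beside 9.22% of all genes. DESeq2 called 1, beside 1.1%, limma voom 1, beside 0.429%, and edgeR without the count filter 1, beside 0.35%. All of these counts are of Grik4, which was also the 1 gene of 9 whose groups did not overlap, beside 5.74% of all genes. The median log2 fold change was 0.00 for the AMPA genes and -0.12 for the kainate genes, beside -0.01 over all genes.

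Grik4 was at 2.18, 4.10, 3.08 and 3.14 CPM in the embWPC ALBSF libraries, against 5.13, 6.22, 6.71 and 5.09 CPM in the Ctrl ALBSF libraries. All 4 treated libraries lay below all 4 control libraries, with a mean of 3.13 ± 0.785 CPM in embWPC ALBSF and 5.79 ± 0.809 CPM in Ctrl ALBSF. The log2 fold change was -0.89 ± 0.20 with an adjusted p of 0.105. The same contrast had adjusted p values of 0.00328 with DESeq2, 0.0401 with limma voom and 0.0165 without the count filter. Leaving out 1 library at a time gave log2 fold changes from -1.04 to -0.75, none of them called. The meningeal markers summed to 13.3 to 17.0 CPM in embWPC ALBSF and 21.6 to 22.9 CPM in Ctrl ALBSF, lower for 12 of 12 genes. Markers of GABAergic prethalamic neurons were lower for 9 of 9 genes tested, with sums of 9.83 to 41.6 CPM in embWPC ALBSF and 6.41 to 64.6 CPM in Ctrl ALBSF. Microglial markers were lower for 7 of 7 genes, with sums of 37.9 to 49.3 CPM in embWPC ALBSF and 43.9 to 70.9 CPM in Ctrl ALBSF. Astrocyte and radial glia markers were lower for 9 of 10 genes and higher for 1. They summed to 5396 to 10380 CPM in embWPC ALBSF and 7828 to 11562 CPM in Ctrl ALBSF. Oligodendrocyte lineage markers were lower for 5 of 6 genes tested and higher for 1, with sums of 288 to 451 CPM in embWPC ALBSF and 366 to 482 CPM in Ctrl ALBSF. None of these markers was called, and their part in the value of Grik4 was not tested beyond the covariate fits that follow. With the meningeal level as a covariate, Grik4 had a log2 fold change of -1.005 with an adjusted p of 0.104. With the oligodendrocyte level it was -0.86 with an adjusted p of 0.214. The library number as a block gave -0.89 with an adjusted p of 0.204. This contrast uses the same 4 Ctrl ALBSF libraries as the contrast of the territories, so their values for Grik4 share the noise of those libraries.

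The other kainate genes did not pass the test in the treated lip territory. Grik1 was at 18.5, 25.3, 20.6 and 19.0 CPM in embWPC ALBSF, between its levels in the control territories on average, with a log2 fold change of -0.32 ± 0.20 against Ctrl ALBSF and an adjusted p of 0.657. Grik2 averaged 38.1 ± 4.24 CPM, Grik3 25.5 ± 4.05 CPM and Grik5 28.5 ± 1.70 CPM in embWPC ALBSF. Their log2 fold changes against Ctrl ALBSF were 0.14 ± 0.11 for Grik2, -0.12 ± 0.11 for Grik3 and -0.07 ± 0.11 for Grik5, at adjusted p values of 0.736, 0.764 and 0.877 in that order.

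The AMPA genes of the treated lip territory had small differences from Ctrl ALBSF. Gria1 averaged 16.1 ± 3.43 CPM in embWPC ALBSF and 16.1 ± 1.42 CPM in Ctrl ALBSF, and the sign of its log2 fold change, which was within 0.12 of 0 under every library left out, depended on the scaling. Gria2 was at 387, 392, 410 and 451 CPM in embWPC ALBSF, with a log2 fold change of 0.10 ± 0.09 and an adjusted p of 0.746. Gria3 averaged 7.61 ± 2.32 CPM and Gria4 119 ± 7.29 CPM in embWPC ALBSF, with log2 fold changes of -0.06 ± 0.23 and 0.01 ± 0.09 at adjusted p values of 0.952 and 0.981.

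Set against the whisker territory of control pups, embWPC ALBSF had no called member in edgeR, DESeq2 or limma voom, beside 0.00571% of all genes in edgeR and in voom and 0.423% in DESeq2. At an unadjusted p under 0.05 there was 1 of 9, beside 9.47% of all genes, and this was Gria2, the subunit that closes the channel to calcium. The groups did not overlap for Gria2 alone, 1 of 9 genes beside 4.73% of all genes. Its 4 embWPC ALBSF libraries, from 387 to 451 CPM, lay just above the highest of the 4 Ctrl PMBSF libraries, at 386 CPM. The log2 fold change of Gria2 was 0.28 ± 0.09 with an adjusted p of 0.351. In the same contrast meningeal markers were lower in embWPC ALBSF for 12 of 12 genes, with sums of 13.3 to 17.0 CPM in embWPC ALBSF and 18.5 to 106 CPM in Ctrl PMBSF. Oligodendrocyte markers were higher for 6 of 6 genes tested, with sums of 288 to 451 CPM in embWPC ALBSF and 320 to 341 CPM in Ctrl PMBSF. GABAergic prethalamic markers were lower for 9 of 9 genes tested, with sums of 9.83 to 41.6 CPM in embWPC ALBSF and 12.5 to 49.8 CPM in Ctrl PMBSF. None of these markers was called. The log2 fold change of Gria2 was 0.32 with the meningeal and 0.27 with the oligodendrocyte covariate, and the part of the GABAergic markers was not tested. Grik4 had a log2 fold change of 0.10 ± 0.20 with an adjusted p of 0.909, with means of 3.13 ± 0.785 CPM in embWPC ALBSF and 2.92 ± 0.573 CPM in Ctrl PMBSF. For the other 7 genes the log2 fold changes ran from -0.28 for Gria1 to 0.36 for Grik1, at adjusted p values of 0.564 and 0.587.

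Because receptors are assembled from several subunits, each gene was also expressed as its share of its family, from CPM per kb of exon. These are shares of RNA in bulk tissue and do not give the make-up of the receptors. None of the 27 share differences passed an exact permutation test after adjustment. The smallest p that 4 against 4 libraries allow is 0.0286, and the adjustment over 27 tests brought it to 0.129 here. An adjusted p under 0.05 would need most of the 27 differences to reach that smallest p. The lack of a call therefore says little about any 1 share. Gria2 made up 62.1% of the AMPA sum in embWPC ALBSF, 57.7% in Ctrl PMBSF and 60.5% in Ctrl ALBSF. The 4 shares of Gria2 in embWPC ALBSF, from 61.0 to 63.4%, lay above all 4 in Ctrl PMBSF, from 55.8 to 59.6%, which gives the smallest p. Gria4 made up 27.4%, 27.9% and 28.3% of the AMPA sum in embWPC ALBSF, Ctrl PMBSF and Ctrl ALBSF. Gria1 made up 11.2% in Ctrl PMBSF and 8.52% in Ctrl ALBSF, again with shares that did not overlap. The size of some shares depends on the length used: with the longest transcript Gria1 made up 6.07% in Ctrl PMBSF and 4.55% in Ctrl ALBSF, and with no length scaling 4.15% in Ctrl PMBSF and 3.07% in Ctrl ALBSF.

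Within the kainate family the shares of Grik2 and Grik4 separated the lip territory of control pups from both other groups. The share of Grik2 was 19.1, 20.3, 20.1 and 20.7% in the embWPC ALBSF libraries, 18.9, 25.3, 21.7 and 23.4% in the Ctrl PMBSF libraries and 17.5, 17.98, 16.2 and 14.7% in the Ctrl ALBSF libraries. All 8 values of the treated lip and control whisker tissue were higher than the 4 of the control lip tissue. The CPM of Grik2 itself overlapped between the groups in both contrasts. Its log2 fold changes were 0.16 for Ctrl PMBSF and 0.14 for embWPC ALBSF, each against Ctrl ALBSF and neither called. Its share also depends on the levels of the other kainate genes. The share of Grik4 was 2.86 ± 0.533% in embWPC ALBSF, 2.93 ± 0.429% in Ctrl PMBSF and 4.85 ± 0.793% in Ctrl ALBSF. Its groups were apart in the other direction, with each value of embWPC ALBSF and Ctrl PMBSF below each value of Ctrl ALBSF. These 4 contrasts reached the smallest p of 0.0286 in the exact test and an adjusted p of 0.129. They are not separate evidence, since they use the same 4 Ctrl ALBSF libraries and since shares within a family depend on each other. Grik1 took 27.5% in embWPC ALBSF, 23.1% in Ctrl PMBSF and 30.6% in Ctrl ALBSF, and its control groups overlapped at p = 0.0571 in the exact test. Its share was lower in Ctrl PMBSF in 4 of 4 pairs. An exact sign-flip test over 4 pairs cannot go below p = 0.125. The control shares of Grik1, Grik2, Grik4 and Grik5 reached it, as did those of Gria1 and Gria3 in the AMPA family.

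**Figure D4:**
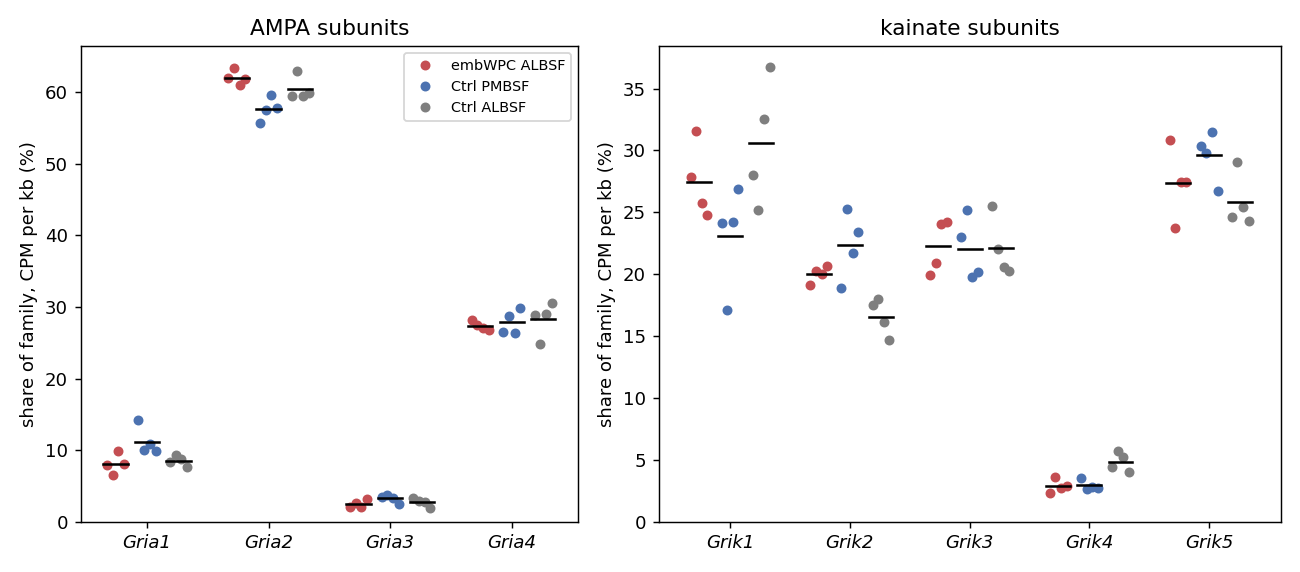
Share of each subunit in the summed CPM per kb of its family (vertical axis, percent) in each library of embWPC ALBSF, Ctrl PMBSF and Ctrl ALBSF, with the group mean as a line. Gria2 takes 57.7 to 62.1% of the AMPA sum on average, and Grik4 takes 4.85% of the kainate sum in Ctrl ALBSF against under 3% in the other groups.

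The sums of the families were read in the same way, on the CPM scale. The 4 AMPA genes summed to 552 ± 40.0 CPM in embWPC ALBSF, 474 ± 40.7 CPM in Ctrl PMBSF and 524 ± 28.9 CPM in Ctrl ALBSF. The 5 kainate genes summed to 116 ± 10.5 CPM in embWPC ALBSF, 109.6 ± 16.4 CPM in Ctrl PMBSF and 124 ± 6.94 CPM in Ctrl ALBSF. In both families the ranges of the 3 groups overlapped, and no test was made on the sums.

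Receptor subunits work with partner proteins, and 56 partner genes in 6 lists were read beside them. Between Ctrl PMBSF and Ctrl ALBSF, 2 of 15 auxiliary subunits of AMPA receptors fell and none rose, with a median log2 fold change of -0.09 over the list. The list of pentraxins and other extracellular clustering proteins had 1 of 8 lower and none higher. Over all genes tested, 1.62% were called. The 4 auxiliary and ligand genes of kainate receptors, the 7 genes of receptor assembly in the endoplasmic reticulum, the 3 editing enzymes and the 19 scaffold and trafficking genes had no call in edgeR without the block. At an unadjusted p under 0.05 there were 3 of the scaffold and trafficking genes and none in the other 3 of these lists, beside 11.8% of all genes. With the block, 1 rose (Syndig1) and 3 fell (Cacng4, Cnih3 and Shisa6) among the auxiliary AMPA subunits. Among the clustering proteins 1 rose (Lrrtm1) and 3 fell (Nptx2, Nptxr and Olfm2), and 1 scaffold gene (Dlg1) fell. Over all genes, 5.04% were called with the block in either direction. Over all 56 partner genes DESeq2 called 6 lower, beside 3.01% of all genes, and voom 5 lower and 1 higher, beside 2.53%.

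Shisa6, an auxiliary subunit that holds AMPA receptors at synapses, was at 3.19, 2.42, 3.97 and 2.29 CPM in Ctrl PMBSF and 5.39, 8.55, 9.30 and 8.89 CPM in Ctrl ALBSF. Every whisker library was lower than every lip library, and the log2 fold change was -1.43 ± 0.24 with an adjusted p of 0.00647. Shisa6 stayed called whichever library was left out, and with the meningeal covariate had a log2 fold change of -1.32 with an adjusted p of 0.0905. In embWPC ALBSF its libraries were at 3.35, 5.27, 2.81 and 5.19 CPM, just below the lowest Ctrl ALBSF library, with a log2 fold change of -0.95 ± 0.24. That difference had an adjusted p of 0.166 in edgeR and was not called, while DESeq2 gave 0.0146 and limma voom 0.0430.

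Cnih3, a cornichon protein that slows the closing of AMPA channels, was at 4.92, 9.05, 9.94 and 9.45 CPM in Ctrl PMBSF, against 19.5, 22.6, 25.2 and 16.8 CPM in Ctrl ALBSF. The groups were clear of each other, with a log2 fold change of -1.34 ± 0.26 and an adjusted p of 0.0164. The call was lost at an adjusted p of 0.0532 when Ctrl ALBSF 2 was left out, 0.0654 when Ctrl ALBSF 3 was left out and 0.0972 with the meningeal covariate, where the log2 fold change was -1.46. The embWPC ALBSF libraries were spread widely, at 9.39, 14.8, 9.99 and 21.6 CPM, and their log2 fold change against Ctrl ALBSF was -0.59 ± 0.25 with an adjusted p of 0.511.

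Nptxr, a membrane pentraxin that gathers AMPA receptors at synapses, was at 24.6, 27.3, 31.9 and 36.1 CPM in Ctrl PMBSF, against 41.0, 52.2, 48.7 and 47.8 CPM in Ctrl ALBSF. Its log2 fold change was -0.66 ± 0.12 with an adjusted p of 0.0115. With the meningeal covariate it was -0.66 with an adjusted p of 0.0995, and with the oligodendrocyte covariate -0.63 with an adjusted p of 0.0552. In embWPC ALBSF it averaged 39.1 ± 4.84 CPM, a log2 fold change of -0.28 ± 0.12 with an adjusted p of 0.516 against Ctrl ALBSF.

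The other partners named here were not called by edgeR without the block, though other fits called some of them. Dlg1, a scaffold protein that binds the tail of Gria1, averaged 3.17 ± 0.531 CPM in Ctrl PMBSF and 5.08 ± 0.679 CPM in Ctrl ALBSF, with a log2 fold change of -0.68 ± 0.19 and an adjusted p of 0.124, or 0.0191 with the block and 0.0312 with DESeq2. Adarb1, the enzyme that edits the pore codon of Gria2, averaged 90.0 ± 15.3 CPM in embWPC ALBSF, 74.7 ± 13.5 CPM in Ctrl PMBSF and 85.9 ± 4.18 CPM in Ctrl ALBSF. Its relative Adarb2, for which no editing activity is known, had the smallest p of the editing list, with 1.13 ± 0.487 CPM in embWPC ALBSF and 1.96 ± 0.528 CPM in Ctrl ALBSF at an adjusted p of 0.547. Neto2 and Neto1, auxiliary subunits of kainate receptors, averaged 98.6 and 27.4 CPM in embWPC ALBSF, 105 and 25.8 CPM in Ctrl PMBSF and 108 and 27.5 CPM in Ctrl ALBSF. C1ql2, a secreted ligand of kainate receptors, averaged 2.75 ± 1.80 CPM in embWPC ALBSF and 1.75 ± 0.483 CPM in Ctrl PMBSF at an adjusted p of 0.639. Cnih4, of the assembly list, averaged 8.62 ± 1.96 CPM in embWPC ALBSF and 11.5 ± 1.11 CPM in Ctrl ALBSF, a log2 fold change of -0.41 ± 0.14 with an adjusted p of 0.358.

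In embWPC ALBSF against Ctrl ALBSF, and against Ctrl PMBSF, edgeR called none of the 56 partner genes. DESeq2 and voom each called 1 of them, Shisa6, against Ctrl ALBSF, and none against Ctrl PMBSF. Against Ctrl ALBSF, an unadjusted p under 0.05 was reached by 3 of 15 auxiliary AMPA subunits, 2 of 7 assembly genes, 2 of 19 scaffold genes and 2 of 8 clustering genes, beside 9.22% of all genes. Against Ctrl PMBSF it was reached by 2 of 15 auxiliary AMPA subunits, 4 of 19 scaffold genes and 1 of 8 clustering genes, beside 9.47% of all genes. The median log2 fold changes against Ctrl ALBSF of the 4 lists named for it ran from -0.11 to 0.02.

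**Figure D5:**
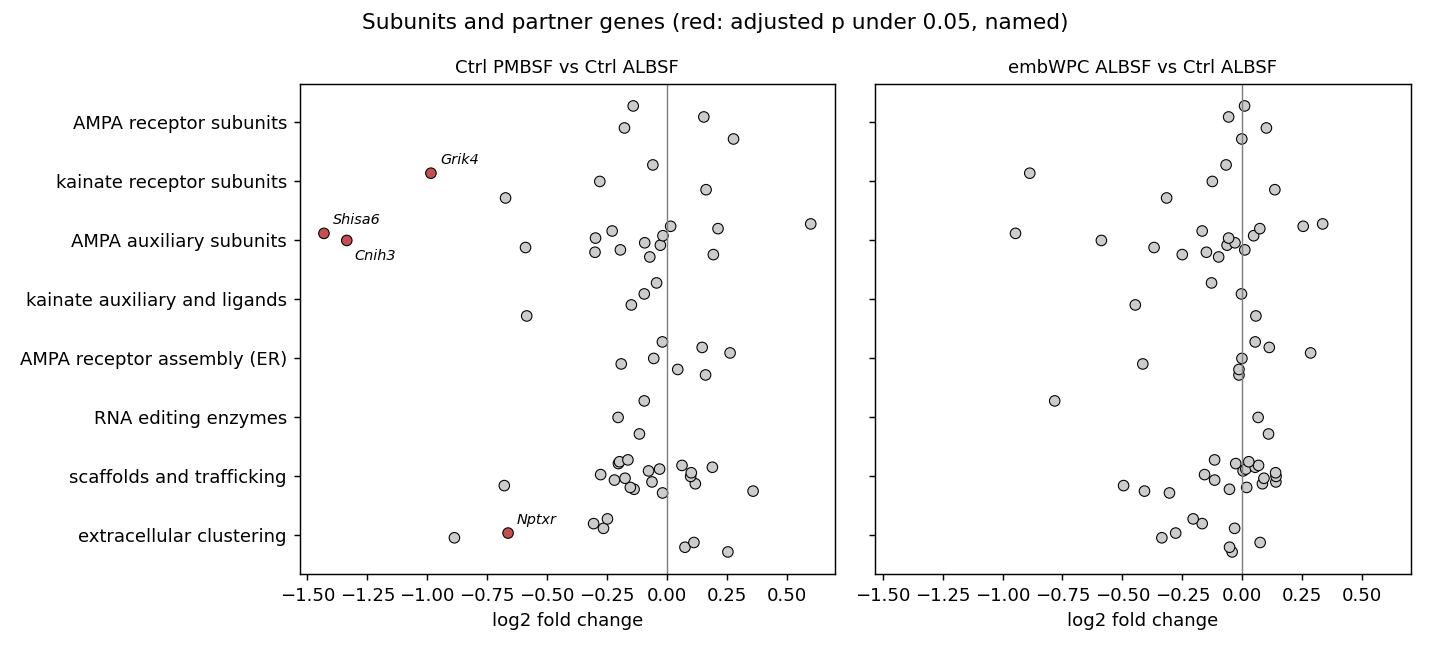
Log2 fold changes (horizontal axis) of the subunit genes and of the 6 partner lists, 1 point per gene, for Ctrl PMBSF vs Ctrl ALBSF on the left and embWPC ALBSF vs Ctrl ALBSF on the right. Red named points passed an adjusted p under 0.05, and these are Grik4, Shisa6, Cnih3 and Nptxr, all lower in Ctrl PMBSF.

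Candidates for likeness to Grik4 were 10241 genes with at least 5 CPM on average, with genes lacking a symbol, Gm numbers and Rik names left out. Those whose levels followed Grik4 most closely over the 12 libraries were found by the root mean square difference of log2 CPM centred per gene. They were Pcdh10, a protocadherin, at 0.198, Nkain3, a protein that interacts with the sodium pump, at 0.225, and Robo1, a receptor for Slit guidance cues, at 0.231. Between Ctrl PMBSF and Ctrl ALBSF, Pcdh10 had a log2 fold change of -0.94 with an adjusted p of 0.00176, Nkain3 one of -0.84 with 0.0597 and Robo1 one of -0.84 with 0.00391. Between embWPC ALBSF and Ctrl ALBSF the log2 fold changes were -0.77 for Pcdh10 with an adjusted p of 0.0486, -0.92 for Nkain3 with 0.107 and -0.58 for Robo1 with 0.107. Between the control territories Robo1 was called in 20 of 21 other settings, the exception being the meningeal covariate (log2 fold change -0.75, adjusted p = 0.0695), and Nkain3 in 6, among them the block with an adjusted p of 0.00848. In embWPC ALBSF set against Ctrl ALBSF, Pcdh10 was called in 10 of 21 other settings, Nkain3 in 4 and Robo1 in 3. These genes were picked for their likeness to Grik4, so their direction is a description and no further evidence about it.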

How the data were processed

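The deposited files hold raw counts per Ensembl gene, 1 file per library, made by the authors. Alignment to GRCm39 with STAR 2.7.9a, after FastQC 0.11.9, and counting with featureCounts (Subread 2.0.1), after SAMtools 1.15, are stated per the submitters' processing notes, in which mm10 is named as well. Strand settings and those for reads that align to several places are not given in the sources used here. Counts from GENCODE M39 genes were 99.98381% of the total, and no 2 libraries agreed within sampling noise.

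The tests ran in edgeR 4.0.16 under R 4.3.3. The 12 libraries were fitted together with the quasi-likelihood model, group as the only term, filterByExpr by group and TMM scaling, with Benjamini-Hochberg adjustment over 17501 genes. The method was tested on simulated data. Alternatives used DESeq2 1.42.0, limma 3.58.1 (voom with quality weights), other scalings, no count filter, 8 libraries, a replicate block, marker covariates, and each library left out. Shares were compared with two-sided exact permutation tests over 70 assignments, adjusted over 27 tests. Log2 values for likeness and covariates used a prior count of 2. Sequences were read from the GENCODE M39 transcript sequences, with coding positions from its annotation.

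Members and gene lists were chosen with earlier results of these data known. Named were all 9 members and the 3 genes most like a called member. From each partner list, every gene called by edgeR without the block in any comparison was named, or else the one with the smallest p. Partner genes called with the block were named as well, after their values were seen. Of the marker genes, Emx1 and the called relay neuron markers Rora and Tcf7l2 were also named. The genes named from the lists as background to editing and kainate auxiliaries, Adarb1, Neto1 and Neto2, were chosen after their values were seen. Same-numbered control libraries deviated together, with correlations of 0.198 to 0.396 over genes, so the numbers were taken to pair the control territories. The labels do not say what the number marks. Between embWPC ALBSF and the control groups the correlations ran from -0.147 to 0.05, and the numbers were not taken as pairs. The block was run there only as an alternative setting.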

Additional observations from a re-analysis of the deposited data

Results flagged for a closer look

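A library stood apart from the other 3 of its group in 3 of the 54 groups of values examined, by a gap larger than Dixon's 95% critical value allows, which chance gives in about 1 in 20 groups. Gria1 was at 14.0 CPM in Ctrl ALBSF 4, below the 16.7 to 17.0 CPM of the other Ctrl ALBSF libraries. Grik2 was at 31.8 CPM in embWPC ALBSF 1, below the 39.8 to 40.8 CPM of the other embWPC ALBSF libraries. The share of Gria2 in the AMPA sum was 63.0% in Ctrl ALBSF 2, above the 59.5 to 59.9% of the other Ctrl ALBSF libraries. None of these values belongs to a called difference, and their cause was not tested.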

How the results depend on the processing

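Of the 9 members, 1 was called between Ctrl PMBSF and Ctrl ALBSF. The count was 2 without the count filter, with DESeq2 and with the replicate block, 0 with the meningeal or the oligodendrocyte covariate, and 0 to 1 with a library left out. In embWPC ALBSF vs Ctrl ALBSF the count of 0 became 1 without the count filter, with DESeq2 and with voom. Genes called over all genes numbered 284 between the control territories, against 108 with the meningeal covariate, 138 with the oligodendrocyte covariate, 857 with the block, 527 with DESeq2, 443 with voom and 127 to 282 with a library left out. For embWPC ALBSF vs Ctrl ALBSF the 11 genes became 121 without the filter, 19 and 3 with these covariates, 1 with the block, 181 with DESeq2, 75 with voom and 1 to 37 with a library left out. For embWPC ALBSF vs Ctrl PMBSF the 1 gene became 72 without the filter, 0 with the meningeal covariate, 0 with the block, 74 with DESeq2 and 1 to 3 with a library left out. The oligodendrocyte covariate and the canonical transcript length were chosen after seeing the data. The cause of these changes was not tested. As a paired analysis, the block changed the call of Grik1 among the members and no other.

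Signs turned for differences near 0. For embWPC ALBSF vs Ctrl ALBSF, Gria1 had a log2 fold change of 0.0079 with upper-quartile scaling, 0.0045 without the filter, 0.041 with the oligodendrocyte covariate and 0.011 from 8 libraries, Gria3 one of 0.22 with the oligodendrocyte covariate, and C1ql2 ones of -0.060 and -0.045 with the meningeal and oligodendrocyte covariates. For embWPC ALBSF vs Ctrl PMBSF, Grik5 had 0.0046 with upper-quartile scaling, 0.0088 with the block and 0.047 with voom, and with the meningeal covariate Grik2 had 0.11, Grik4 -0.19 and Pcdh10 -0.012. Adarb2 between the control territories had 0.57 and 0.24 with the meningeal and oligodendrocyte covariates. With no length scaling the share differences were 0.175 points for Gria4 between the control territories, -0.562 for Grik3 in embWPC ALBSF vs Ctrl ALBSF and 0.0015 for Grik4 in embWPC ALBSF vs Ctrl PMBSF. With a library left out, log2 fold changes between the control territories ran from -0.30 to 0.16 for Adarb2, -0.0042 to 0.32 for Gria3 and -0.21 to 0.0013 for Grik5. In embWPC ALBSF vs Ctrl ALBSF they ran from -0.12 to 0.12 for Gria1, -0.27 to 0.12 for Gria3, -0.069 to 0.066 for Gria4 and -0.50 to 0.44 for C1ql2. In embWPC ALBSF vs Ctrl PMBSF they ran from -0.022 to 0.29 for Dlg1, -0.11 to 0.074 for Grik2, -0.058 to 0.23 for Grik4, -0.068 to 0.15 for Grik5 and -0.36 to 0.027 for Nkain3. Share differences ran from -1.63 to 0.297 points for Gria4 and -1.11 to 1.07 for Grik3 between the control territories, -1.01 to 0.127 for Gria1 and -0.487 to 1.30 for Grik3 in embWPC ALBSF vs Ctrl ALBSF, and -1.01 to 0.172 for Gria4, -0.525 to 1.27 for Grik3 and -0.308 to 0.140 for Grik4 in embWPC ALBSF vs Ctrl PMBSF. Depth limits Grik4 most, with 65 to 194 counts per library.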
